A study of Mus musculus with 10 samples.

Results

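The nuclear-encoded subunits of the mitochondrial respiratory chain and of ATP synthase, with the assembly factors named alongside them, were followed through 10 granulosa cell libraries. Members were the gene symbols that start with Nduf, Uqcr, Cox4, Cox5, Cox6, Cox7, Cox8 or Atp5, or equal Cyc1, Sdhc or Sdhd, and that held at least 100 estimated reads over the 10 libraries. Of 35087 rows with a gene symbol, 99 carried such a name and 84 reached the threshold. The 84 comprised 36 subunits of complex I, 2 of complex II, 9 of complex III, 12 of complex IV, 15 of complex V and 10 assembly or related factors (Ndufaf1 to Ndufaf8, Cox7a2l and Atp5s). Ndufa4 was counted with complex IV, where its protein is now placed.

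The oxidative phosphorylation system sits in the inner mitochondrial membrane. Complex I (NADH dehydrogenase) and complex II (succinate dehydrogenase) pass electrons to ubiquinone, complex III (the cytochrome bc1 complex) passes them on to cytochrome c, complex IV (cytochrome c oxidase) hands them to oxygen, and complex V (ATP synthase) uses the proton gradient built on the way to make ATP. Most subunits are encoded in the nucleus and imported, a few are encoded by mitochondrial DNA, and separate assembly factors help to build each complex. Granulosa cells are the somatic cells that surround and nourish the oocyte, and the chain is a major cellular source of reactive oxygen species.

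Wild-type female C57B6/J mice aged 3 weeks were injected intraperitoneally on 3 consecutive days with N-acetyl-L-cysteine at 150 mg/kg (abbreviated NAC; it supplies cysteine for glutathione and acts as an antioxidant) or with saline. Ovaries were taken on day 4, counted from the first injection, and granulosa cells were cut out of them by laser microdissection. Polyadenylated RNA was amplified with GEO-seq, a protocol made for small captured areas, and gave 4 NAC and 6 saline libraries, all labelled as 1 batch. The labels do not say which libraries share an animal, so each p-value rests on the spread among libraries of captured tissue, part of which may be technical.

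Depth was uneven. NAC 1 to 4 held 1287409, 507396, 115666 and 1657536 reads on rows with a gene symbol and the saline libraries 1331693 to 2473749, so that a member had a median of 220, 79, 11 and 288 reads in NAC 1 to 4 and of 252.5 to 516 in saline. NAC 2 and NAC 3 stood apart: 84.84% and 85.09% of the tested genes had a read there, against 97.7% to 99.53% in the other 8. All 12 granulosa markers examined had reads in 9 libraries, and NAC 2 lacked reads of Cyp19a1. Their summed level was 6913 to 13380 CPM (reads brought to an equal library total by edgeR's TMM factors) in NAC, 11290 and 14500 in saline 1 and 2, and 35270 to 41040 in saline 3 to 6. Inha made up most of this sum except in NAC 2, where it gave 2586 of 6913 CPM and Gja1 2357. The 12 oocyte markers summed to 230.1 to 1528 CPM in NAC and 1.334 to 1901 in saline, with up to 11 of the 12 at 0 in a library. The 9 theca and stroma markers summed to 56.38 to 1847 CPM in NAC (7 at 0 in NAC 3) and 109.5 to 1055 in saline, the 5 endothelial markers to 48.33 to 161.8 and 8.113 to 38.68, and the 4 smooth muscle markers to 0 to 563.1 and 5.409 to 301.9. Immune markers summed to at most 38.91 CPM in any library. Erythrocyte markers reached 843.2 CPM in NAC 4 and at most 85.71 elsewhere.

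Promoters are shown because respiratory genes are known targets of nuclear respiratory factor 1 (NRF1), and because the members' log2 folds lay on both sides of 0. RefSeq (GRCm38.p6) gave a window from 250 bases before to 50 bases after the start for 69 of the 84. The start taken was the RefSeq start nearest to the 5′ end of the annotated gene. For Atp5g2, Cox6a1 and Atp5b it lies inside the annotated gene, whose 5′ end is at 102672352, 115348981 and 128083273. The NRF1 motif, GCGCA followed directly by TGCGC, reads the same on both strands and lay in 7 of these 69 windows (10.1%, against 2.34% of 8510 tested protein-coding genes). The 250 bases upstream of the start are printed for 3 genes with the motif, 1 of which had a log2 fold of NAC over saline above 0, and for Atp5b, the most abundant member, which has none. Capitals mark matches to the NRF1 motif or to the ETS motif CCGGAAG on either strand, the motif bound by GABP; each sequence runs 5′ to 3′ on the gene's strand and ends at the base before the start.
Atp5g2, chr15:102671048-102671297, minus strand: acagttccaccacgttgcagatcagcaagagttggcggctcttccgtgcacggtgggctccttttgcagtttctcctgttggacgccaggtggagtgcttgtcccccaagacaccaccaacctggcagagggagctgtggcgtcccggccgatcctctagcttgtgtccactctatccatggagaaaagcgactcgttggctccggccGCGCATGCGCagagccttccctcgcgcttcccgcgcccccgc
Cox6a1, chr5:115348959-115349208, minus strand: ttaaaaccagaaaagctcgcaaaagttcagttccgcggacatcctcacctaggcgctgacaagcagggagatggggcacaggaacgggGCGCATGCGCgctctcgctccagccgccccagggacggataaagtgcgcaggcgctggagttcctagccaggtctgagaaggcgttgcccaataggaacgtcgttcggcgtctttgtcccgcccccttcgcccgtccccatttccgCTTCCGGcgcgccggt
Ndufaf4, chr4:24897833-24898082, plus strand: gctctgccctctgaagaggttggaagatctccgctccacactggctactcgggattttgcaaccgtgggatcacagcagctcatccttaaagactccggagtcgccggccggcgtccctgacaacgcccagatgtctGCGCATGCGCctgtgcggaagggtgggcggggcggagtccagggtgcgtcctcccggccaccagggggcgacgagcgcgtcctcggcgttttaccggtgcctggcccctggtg
Atp5b, chr10:128083057-128083306, plus strand: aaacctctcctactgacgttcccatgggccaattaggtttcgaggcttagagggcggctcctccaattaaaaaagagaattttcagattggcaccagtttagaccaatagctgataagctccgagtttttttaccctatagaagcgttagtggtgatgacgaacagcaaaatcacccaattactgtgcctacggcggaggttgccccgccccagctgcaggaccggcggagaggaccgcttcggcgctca

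Levels in saline are given first, as deposited TPM (abundance per transcript length, scaled to a common total). Atp5b, the catalytic beta subunit of ATP synthase, stood highest at 2934 ± 705.7 TPM (SD, n = 6), followed by Cox4i1, the widespread form of subunit 4 of cytochrome c oxidase, at 2110 ± 172.4, and Cox6a1, the widespread isoform of subunit 6a, at 1536 ± 346.8. The ranges of Atp5b (1782 to 3546 TPM) and Cox4i1 (1880 to 2288) overlapped, as did those of Cox4i1 and Cox6a1 (1186 to 2076), so the order of these neighbours is within their spread. The median member had 362 TPM. By complex the median was 357.9 TPM for complex I, 163.5 for the 2 complex II members, 361.8 for complex III, 580.6 for complex IV and 654.3 for complex V.

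Within a complex the levels were not equal. Complex I ran from Ndufs1, the largest subunit of the NADH-oxidising module, at 45.88 ± 7.321 TPM to Ndufa7, an accessory subunit, at 748.3 ± 122 (SD, n = 6), and complex III from Uqcrc2 at 183.1 to Uqcr10 at 735.6. In complex V, Atp5b exceeded Atp5a1, which encodes the alpha subunit that alternates with beta in the F1 head, at 261.9 ± 50.25 TPM. The length used for TPM enters these gaps. Its median was 1614 bases for Uqcrc2, 216.6 for Uqcr10, 652.9 for Atp5b and 2232 for Atp5a1. In estimated reads over the 10 libraries, Uqcrc2 held 4600.8 and Uqcr10 2594, and Atp5b held 33355.1 and Atp5a1 8418. The assembly factors lay lower, with a median of 52.22 TPM. Ndufaf7 was lowest of all members at 16.82 ± 4.513 TPM and Atp5s next at 19.76 ± 9.107. Cox7a2l, classed here as a factor for the joining of complexes into supercomplexes, reached 441.1 ± 122.3. Spread of TPM between saline libraries was smallest for Cox4i1 (coefficient of variation 8.168%) and largest for Cox6b2 (67.75%). The medians were 13.89% in complex V, 15.3% in complex IV, 20.32% in complex I and 33.02% among assembly factors. This order is for the TPM of single genes. In CPM summed over a complex, saline had 7402 ± 1613 for complex V, 3602 ± 673.5 for complex IV and 6603 ± 768.5 for complex I (SD, n = 6).

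**Figure D1:**
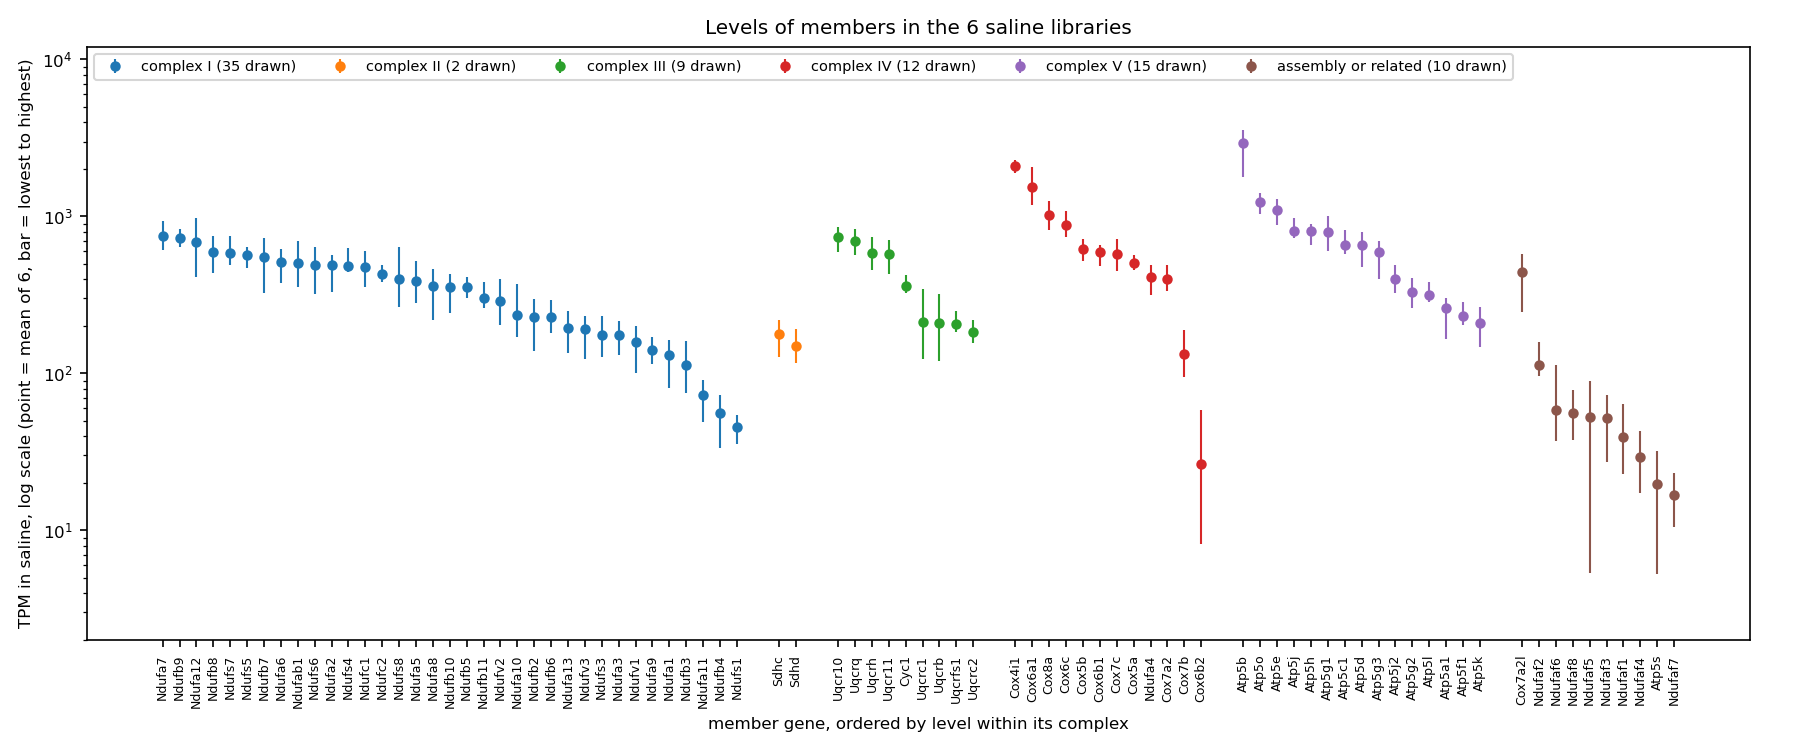
Deposited TPM of 83 of the 84 members in the 6 saline libraries on a log scale; points are means, bars run from the lowest to the highest library, and colours mark the complex. Atp5b is highest at 2934 TPM, Ndufaf7 lowest at 16.82 TPM, and 9 of the 10 assembly or related factors have means of 112.9 TPM or less.

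Isoforms known from other tissues had few reads. Cox4i2, the lung-enriched form of subunit 4, held 59 reads in all 10 libraries against 16568 for Cox4i1. The muscle forms Cox6a2 and Cox7a1 held 28 and 9 reads, Ndufa4l2, a paralogue of Ndufa4 known as a hypoxia target, 30, the testis form Cox8c and the paralogue Cox7b2 1 each, and Cox8b, the muscle form of subunit 8, none. These 7 genes and 8 annotated pseudogenes with at most 1.4 reads fell under the read threshold. Just inside it were Cox6b2, the testis form of subunit 6b, with 160 reads, Atp5s with 299 and Ndufaf8 with 405; just outside were Cox4i2, Ndufa4l2 and Cox6a2.

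NAC was then compared with saline to ask whether these transcripts differed after the antioxidant. None of the 84 members changed by edgeR's quasi-likelihood test at an adjusted p under 0.05, where 8 of 10945 genes tested did (0.0731%; 0.0548% lower and 0.0183% higher). At an unadjusted p under 0.05, 11 members (13.1%) were lower and 1 (1.19%) higher in NAC, against 8.34% and 7.82% of all genes tested. DESeq2 called 3 members, among them Atp5b and Cyc1, all lower (3.57%, against 2.44% of 10293 genes with an adjusted p), and none higher (1.77%). edgeR without a filter on low counts called 2, among them Atp5b (0.622% of 21234 genes were called lower there), and limma on log2(TPM + 1) called none. In all, 57 of the 84 log2 folds were below 0 (67.9%, against 49% of all genes), with a median of -0.21 (quartiles -0.50 and 0.08) against 0.02 for all genes. All 84 passed the filter on low counts.

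**Figure D2:**
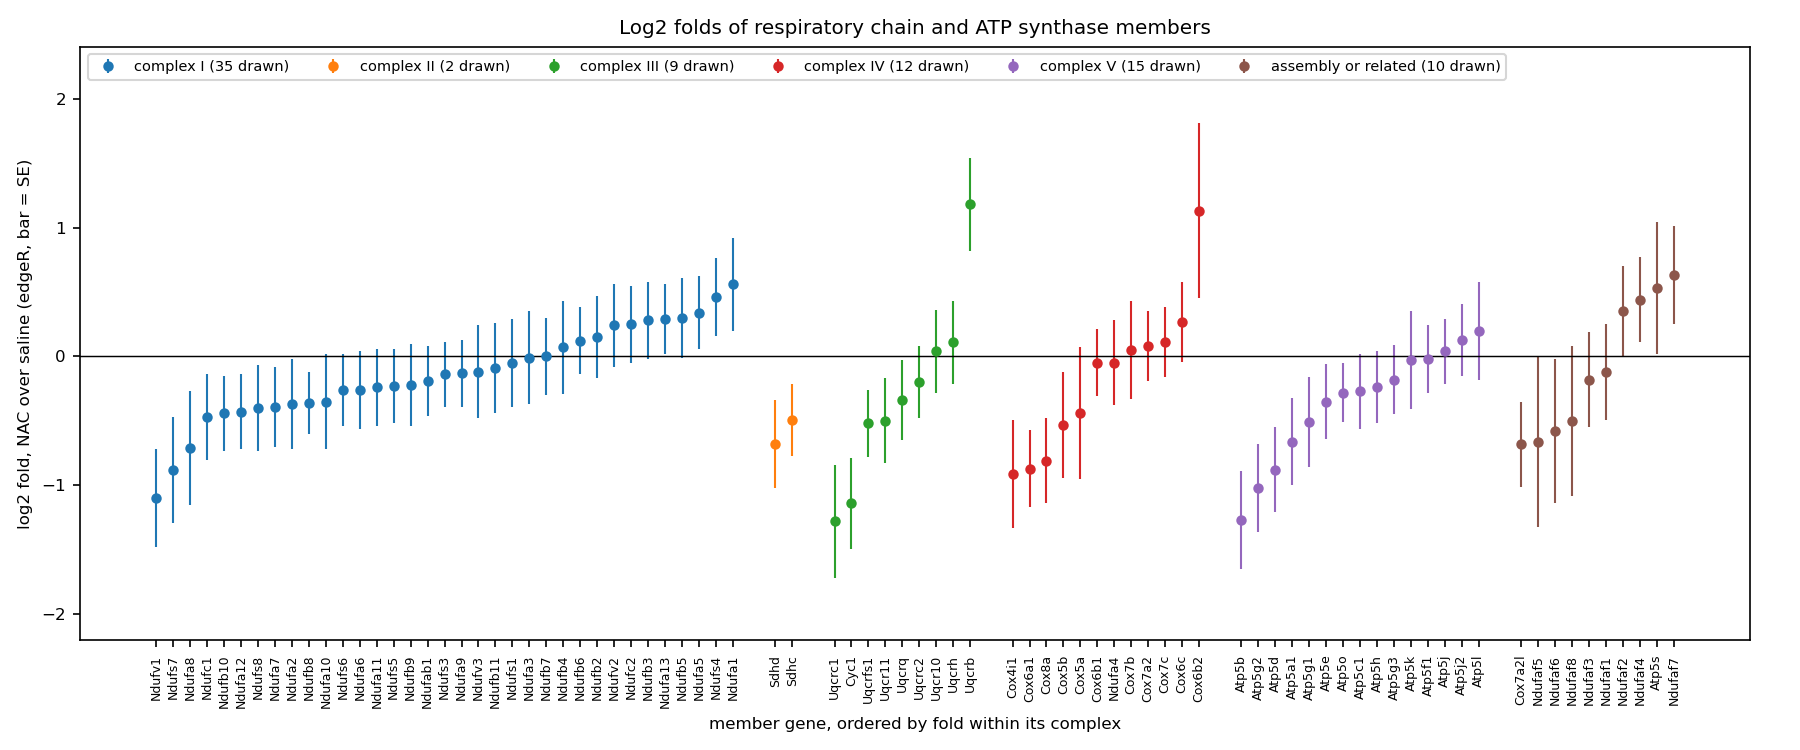
edgeR log2 fold of NAC over saline for 83 of the 84 members, grouped by complex and ordered by fold; bars are standard errors. The points run from -1.28 (Uqcrc1) to 1.18 (Uqcrb), with most below 0 and none called.

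Scaling moved that level. With library size alone in place of TMM factors the median of all genes was 0.19 and that of the members -0.04, with 44 of 84 below 0. The gap between both medians was of like size under TMM factors and library size, but not on the TPM scale. There the members' median was -0.11 against -0.07 for all genes on log2(TPM + 1), and -0.14 against -0.14 on log2(TPM + 0.1). Library by library, the median member lay at -0.18, 0.08, -0.64 and -0.24 on the log2 scale from the saline mean in NAC 1 to 4, and at -0.28, -0.15, 0.22, -0.11, 0.17 and 0.17 in saline 1 to 6. Saline 1 and 2 lay about as low as NAC 1 and 4. Fewer cells of a type and less RNA per cell cannot be told apart in such bulk samples.

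Complex I, which takes electrons from NADH, had a median log2 fold of -0.17, with 24 of 36 members below 0. At an unadjusted p under 0.05, 3 of the 36 were lower, where 8.34% of all genes tested were. The 7 core subunits carry the flavin, the iron-sulfur clusters and the quinone site. The core had a median of -0.40 (6 of 7 below 0) and the 29 accessory subunits -0.13 (18 of 29 below 0). With library size alone these medians were -0.23 (4 of 7 below 0) and 0.05, and without NAC 1 they were -0.88 (5 of 7) and -0.25. No member of the accessory subunits reached an unadjusted p under 0.05.

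Ndufv1, which holds the flavin and binds NADH (chr19:4007384-4012806), had 137.1, 36.86, 80.55 and 143.9 CPM in NAC and 117 to 283.4 in saline, with a median of 259.2. NAC 2 and NAC 3 lay below every saline library, and NAC 1 and 4 lay with saline 1 and 2. The log2 fold was -1.10 (SE 0.38, edgeR adjusted p = 0.188).

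Ndufs7, the subunit of the last iron-sulfur cluster before ubiquinone (chr10:80249121-80256794), had 266.9, 43 and 80.55 CPM in NAC 1 to 3, 273.9 in NAC 4, and 224.3 to 429.5 in saline (median 299.9). The difference rested on NAC 2 and NAC 3. Its log2 fold was -0.88 (SE 0.41, edgeR adjusted p = 0.306) and -0.28 without those 2 libraries. Among the core subunits with larger p, Ndufs8 had a log2 fold of -0.40 and Ndufv2 of 0.24.

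Of the higher complex I members, the 2 with the smallest p were accessory subunits. Ndufa1, a small membrane subunit encoded on the X chromosome (chrX:37187588-37191163), had 42.56, 40.95, 40.27 and 33.3 CPM in NAC and 18.07 to 33.79 in saline. Its log2 fold came to 0.56 with an SE of 0.36 (edgeR adjusted p = 0.447). NAC 4 alone lay inside the saline range, and the NAC 3 value rests on 5 reads. Ndufs4, a late-joining subunit near the NADH module, had 198.4, 587.7, 193.3 and 260.5 CPM in NAC and 209.5 to 263.1 in saline. NAC 2 alone lay above saline. The log2 fold of 0.46 (edgeR adjusted p = 0.468) became -0.06 without that library. Ndufa7 and Ndufb9, the most abundant complex I members in saline by TPM, had log2 folds of -0.39 and -0.22.

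Complex II is represented by its membrane anchors, Sdhc and Sdhd, which hold the heme and the quinone site. Sdhc had 158.7, 63.48, 145 and 149.8 CPM in NAC and 154.8 to 221.8 in saline, and Sdhd 44.01, 167.9, 80.55 and 86.47 in NAC and 113 to 202.7 in saline. In each, 3 of 4 NAC libraries lay below all saline libraries. The log2 folds were -0.49 (edgeR adjusted p = 0.406) and -0.68 (edgeR adjusted p = 0.334), and -0.27 and -1.16 without NAC 2. Outside the name rule, the catalytic subunits Sdhb and Sdha had log2 folds of -0.81 (edgeR adjusted p = 0.206) and -0.21.

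Complex III had a median log2 fold of -0.34, with 6 of 9 members below 0, and held both the only member with groups apart and the only member higher at an unadjusted p under 0.05. The median was -0.16 with library size alone, -0.04 on log2(TPM + 1) (5 of 9 below 0) and -0.59 without NAC 1. Cyc1, cytochrome c1, passes electrons to cytochrome c (chr15:76343523-76346260). It had 238.8, 143.3, 48.33 and 241.2 CPM in NAC 1 to 4 and 279.7 to 500.6 in saline, with a median of 409.8. The NAC 3 value rests on 6 reads. Every NAC library lay below every saline library, which was true of 1 member in 84 (1.19%) and of 3.43% of all genes tested. No member lay wholly above saline (1.96% of all genes). The log2 fold was -1.14 (SE 0.35, edgeR adjusted p = 0.14, DESeq2 adjusted p = 0.0333), and without NAC 2 and NAC 3 it was -0.73.

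Uqcrc1, a large core protein of the matrix side (chr9:108936633-108949623), had 142.1, 26.62, 128.9 and 201.4 CPM in NAC and 153.5 to 512.9 in saline (median 313.6). NAC 1, 2 and 3 lay below saline and NAC 4 among its lower libraries. The log2 fold of -1.28 was the lowest of all members (SE 0.44, edgeR adjusted p = 0.184). Uqcrfs1, the Rieske iron-sulfur protein, had a log2 fold of -0.52 (edgeR adjusted p = 0.339), with 3 of 4 NAC libraries below saline.

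Uqcrb, a small subunit near the quinone site (chr13:66900617-66905378), had the opposite sign. It had 104.6, 292.8, 80.55 and 97.21 CPM in NAC and 41.5 to 85.71 in saline (median 66.16). NAC 1, 2 and 4 lay above every saline library, and NAC 3, with 10 reads, lay among them. The log2 fold was 1.18 (SE 0.36, edgeR adjusted p = 0.142), and 0.58 without NAC 2. In TPM, Uqcrb was at 321.8 to 977.4 in NAC, 318.4 and 301.5 in saline 1 and 2, and 119.3 to 213.5 in saline 3 to 6. The most abundant members by TPM, Uqcr10 and Uqcrq, had log2 folds of 0.04 and -0.34, and Uqcrh, the hinge protein, 0.11.

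**Figure D3:**
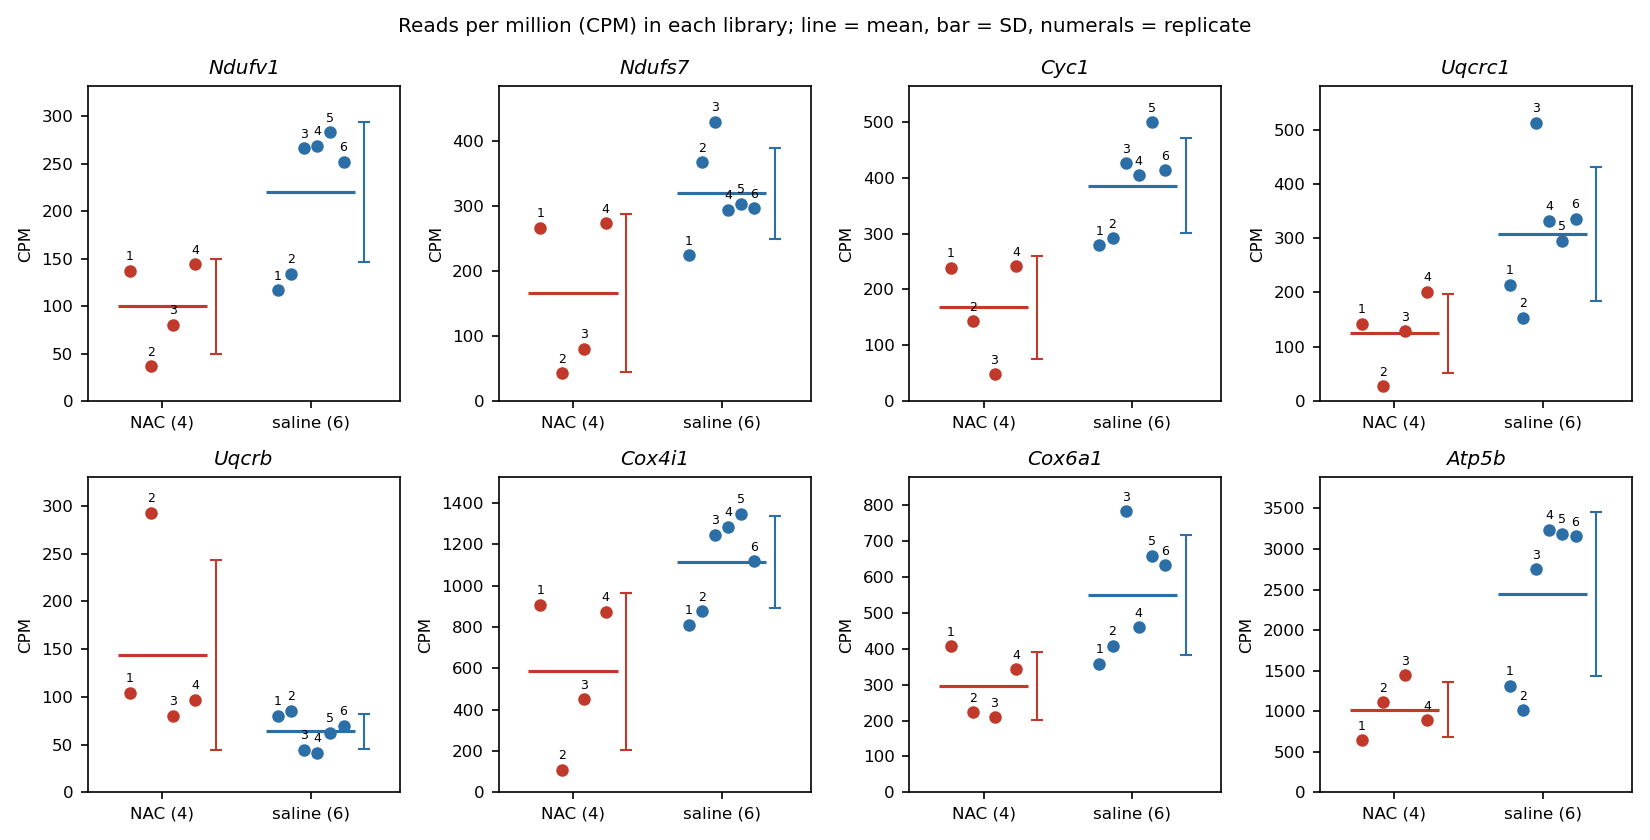
CPM of 8 members in each library (numerals are replicate numbers; lines are means and bars SD; 4 NAC in red, 6 saline in blue). Cyc1 is the panel without overlap between groups, Uqcrb is the panel with higher NAC values, and saline 1 and 2 lie below saline 3 to 6 for Ndufv1, Cyc1, Cox4i1, Cox6a1 and Atp5b.

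Complex IV had a median log2 fold of -0.05, with 7 of 12 members below 0. This median moved with the setting: it was 0.11 with library size alone (5 of 12 below 0), -0.38 with offsets for GC content and length (10 of 12), -0.28 on log2(TPM + 1) and -0.51 on log2(TPM + 0.1). Cox4i1 (chr8:120668222-120674207), had 907.5, 110.6, 451.1 and 873.8 CPM in NAC and 810.7 to 1348 in saline, with a median of 1183. NAC 1 and 4 lay with saline 1 and 2, and NAC 2 was lower than any other library. The log2 fold was -0.91 (SE 0.42, edgeR adjusted p = 0.299) and -0.36 without NAC 2 and NAC 3.

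Cox6a1 (chr5:115345642-115348981) had 406.2, 223.2, 209.4 and 343.7 CPM in NAC and 357.9 to 782.5 in saline (median 545.8). NAC 1 alone lay inside the saline range. Its log2 fold was -0.87 (SE 0.30, edgeR adjusted p = 0.183). Cox8a, the widespread form of the smallest subunit, had 224.4, 235.5, 64.44 and 224 CPM in NAC and 213.9 to 439.9 in saline, a log2 fold of -0.81 with an SE of 0.33 (edgeR adjusted p = 0.242). Its NAC 3 value rests on 8 reads.

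On the other side, Cox6c had a log2 fold of 0.27 and Cox6b2 1.13 (SE 0.68, edgeR adjusted p = 0.42), the latter with 25.25, 8.191, 0 and 20.95 CPM in NAC and 3.075 to 12.46 in saline. Both changed sign under other settings: Cox6b2 was at -0.09 on log2(TPM + 1), and Cox6c at -0.12 without NAC 2 and NAC 3. Cox6b1 and Cox7a2, with log2 folds of -0.05 and 0.08, and Ndufa4, with -0.05, had signs that varied between settings.

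Complex V had a median log2 fold of -0.27, with 12 of 15 members below 0. The 5 genes of the F1 part, the catalytic head with its central stalk, all lay below 0, with a median of -0.66, in the order Atp5b -1.27, Atp5d -0.88, Atp5a1 -0.66, Atp5e -0.35 and Atp5c1 -0.27. The 10 genes of the peripheral stalk and the membrane part had a median of -0.10, with 7 below 0. Under library size alone these medians were -0.46 and 0.07, and under offsets for GC content and transcript length -0.25 and -0.18.

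Atp5b (chr10:128083273-128090391) had 639.9, 1110, 1442 and 886.7 CPM in NAC 1 to 4, and 1013 to 3237 in saline with a median of 2953. Saline 1 and 2, at 1313 and 1013 CPM, lay within the NAC range, and saline 3 to 6 lay above it. The log2 fold was -1.27 (SE 0.38, edgeR adjusted p = 0.13, DESeq2 adjusted p = 0.0261). On the TPM scale the same libraries gave 1555, 2784, 3057 and 1671 in NAC and 1782 to 3546 in saline, a log2(TPM + 1) difference of -0.39 (limma adjusted p = 0.504).

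The gap between both scales can be read from the files. The effective length that links a gene's reads to its TPM was 455.3, 348.1, 438.2 and 636.5 bases for Atp5b in NAC 1 to 4 and 626.9 to 926.4 in saline, with NAC 4 alone inside the saline range. The mix of transcripts and the fragment lengths both enter this length, gene-level tables do not separate them, and their part in the result was not tested. For Cox4i1 that length was 430.2 to 527.1 bases in NAC and 497.7 to 535 in saline, and its TPM difference, -1.17, was no smaller than that in CPM. Among the 12 members at an unadjusted p under 0.05, 2, among them Atp5b, had a log2 fold that shrank by more than 1.5 times on the TPM scale.

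Subunit c, the proton-carrying ring of the membrane part, comes from 3 genes that differ in their import sequences and give the same mature protein. Atp5g2 (chr15:102662864-102672352) had 75.75, 55.29, 40.27 and 145.6 CPM in NAC and 108 to 219.3 in saline, a log2 fold of -1.02 with an SE of 0.34 (edgeR adjusted p = 0.171). NAC 4 alone lay inside the saline range. Atp5g1 and Atp5g3 had log2 folds of -0.51 (edgeR adjusted p = 0.475) and -0.18 (edgeR adjusted p = 0.767).

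As a share of the reads of all 3, Atp5g2 made up 10.06%, 10.42%, 9.091% and 22.4% in NAC and 16.54% to 23.56% in saline. The means were 12.99% ± 6.295 (SD, n = 4) and 20.26% ± 2.801 (SD, n = 6), with an exact two-sided permutation p of 0.0476, or 0.238 after Benjamini-Hochberg adjustment over the 5 shares tested. The share of Atp5g1 was 38.55% ± 17.55 in NAC and 44.08% ± 7.292 in saline (exact permutation p = 0.562, adjusted 0.708). Cox4i2 made up 0.248% and 0.311% of subunit 4 reads, Cox6a2 0.549% and 0.258% of subunit 6a reads, and Cox7a1 0% and 0.387% of Cox7a1 and Cox7a2 reads, with exact permutation p of 0.771, 0.567 and 0.3 before adjustment. The shares of Cox6b2, Cox8b and Ndufa4l2 were not tested, because their families had under 20 reads in a library. The smallest p that 4 against 6 libraries can give is 0.00476.

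Atp5d, the delta subunit of the central stalk (chr10:80138632-80145818), had 354.2, 112.6, 193.3 and 355 CPM in NAC and 279.7 to 618.1 in saline, with a log2 fold of -0.88 with an SE of 0.33 (edgeR adjusted p = 0.223). NAC 2 and NAC 3 lay below saline, NAC 1 and 4 within it. Atp5o, part of the peripheral stalk and the second most abundant member of the complex, had a log2 fold of -0.28 (edgeR adjusted p = 0.561). Atp5l and Atp5j2, the subunits g and f of the membrane part, had log2 folds of 0.20 and 0.13, which were -0.03 and -0.02 on log2(TPM + 1).

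Complex V members summed to 4632, 5637, 4760 and 4912 CPM in NAC 1 to 4, 5161 and 5558 in saline 1 and 2, and 7896 to 8752 in saline 3 to 6; on the TPM scale the sums were 8868 to 10420 in NAC and 10480 to 11990 in saline, without overlap. The TPM sums of the other complexes overlapped between groups: 9563 to 14290 in NAC and 9789 to 14720 in saline for complex I, 196.6 to 354.4 and 252 to 385.4 for complex II, 2280 to 5770 and 3069 to 4094 for complex III, and 5865 to 8492 and 8109 to 9818 for complex IV. Complex IV summed to 1981 to 3079 CPM in NAC and 2641 to 4262 in saline, complex III to 926.3 to 2064 and 1582 to 2447, and complex I to 4317 to 6858 and 5654 to 7675. The 2 complex II members summed to 202.7 to 236.3 CPM in NAC and 287.6 to 398 in saline, without overlap, with saline 1 and 2 at 315 and 311.3. Complex V sums were high in the 4 saline libraries whose granulosa marker sums were also high. Saline 1 and 2 lay near NAC for the marker sum and for complex V, but not for complex II. Atp5b, part of the complex V sum, split the saline libraries in the same way. Of the markers, Inha, Inhba, Fst, Fshr, Hsd17b1 and Gja1 were lower in saline 1 and 2 than in saline 3 to 6. Foxl2 (124.6 and 194.5 CPM against 117.2 to 207.5), Nr5a2 (236.1 and 220.9 against 228 to 278.5), Amh, Inhbb, Cyp19a1 and Kitl overlapped between them. The part of marker content in these differences was not tested.

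**Figure D4:**
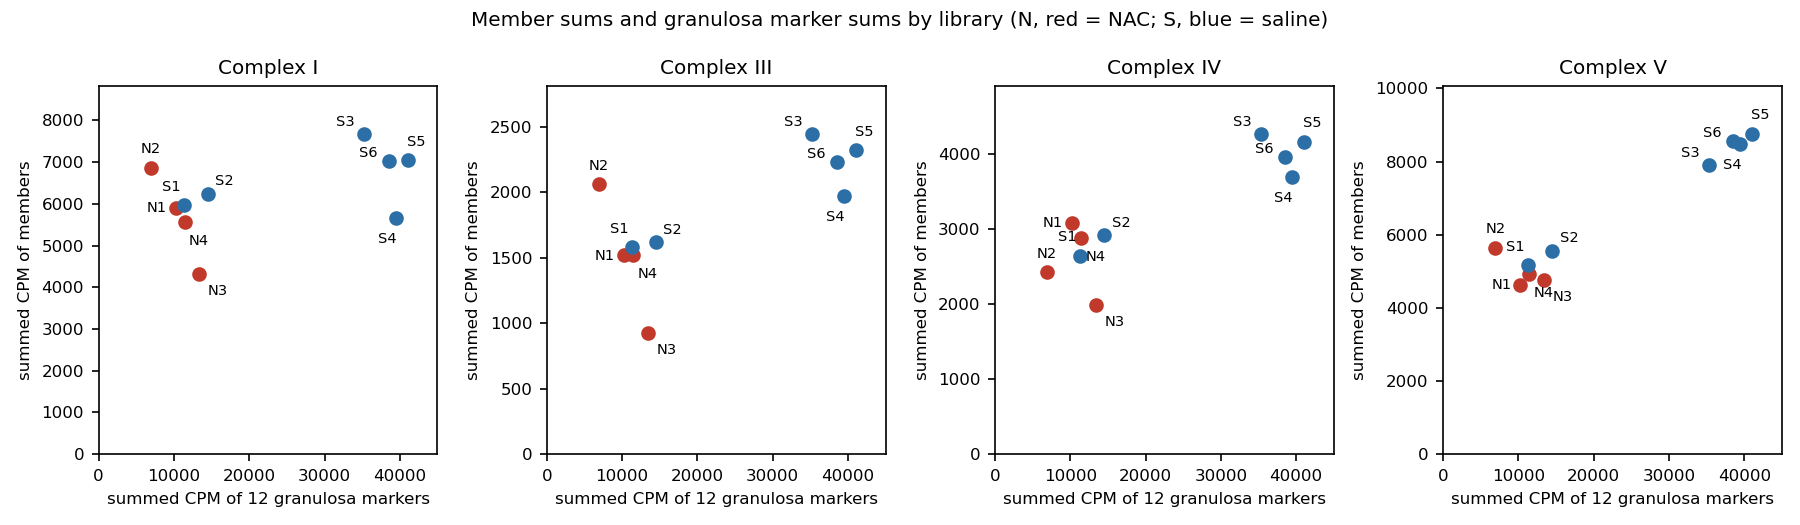
Summed CPM of the members of complexes I, III, IV and V against the summed CPM of 12 granulosa markers in each of the 10 libraries. Saline 3 to 6 lie at 35270 CPM or more of markers, and their complex V sums (7896 to 8752 CPM) are above those of the other 6 libraries (4632 to 5637). Atp5b, the most abundant member, is part of the complex V sum and splits the libraries in the same way.

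Of the assembly and related factors, 6 of 10 were below 0, with a median log2 fold of -0.15 (0.02 with library size alone) and none at an unadjusted p under 0.05. They ranged from -0.68 for Cox7a2l (edgeR adjusted p = 0.316) to 0.63 for Ndufaf7, a methyltransferase of the matrix (edgeR adjusted p = 0.423). Ndufaf8 had -0.50, and Atp5s, a factor named for coupling in ATP synthase, 0.53.

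How the members' levels varied with GC content differed between libraries. The members' annotated transcripts had a median GC content of 50.24% (all tested genes 49.9%) and a median length of 936.5 bases (all 3165). Tested genes were split into quartile groups by GC content. The 14 members of the lowest group had a median log2 fold of 0.19 (all genes 0.46), then -0.21 for 22 members (0.15), -0.26 for 25 (-0.20) and -0.44 for 23 (-0.42). From the lowest to the highest group the members' median deviation from the saline mean went from 0.69 to -0.81 in NAC 2 and from -0.11 to -1.33 in NAC 3, the steepest falls of the 10 libraries. It went from 0.15 to -0.32 in NAC 4, from -0.09 to -0.43 in saline 1, and from -0.17 to -0.17 in NAC 1.

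With offsets for GC content and length, all 12 members at an unadjusted p under 0.05 kept their sign, 10 shrank by more than 1.5 times and 5, among them Atp5b, Cyc1, Ndufv1 and Uqcrc1, still had an unadjusted p under 0.05. Cyc1 was then at -0.66, Atp5d at -0.31, Cox8a at -0.29 and Uqcrb at 0.41, while Atp5b was at -1.08. Without NAC 2 and NAC 3, 7 of the 12 shrank by as much, and Atp5b was at -1.71. The median of all members was -0.25 with the offsets and -0.18 without those libraries, with 65 and 64 of 84 below 0 and none called in either.

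**Figure D5:**
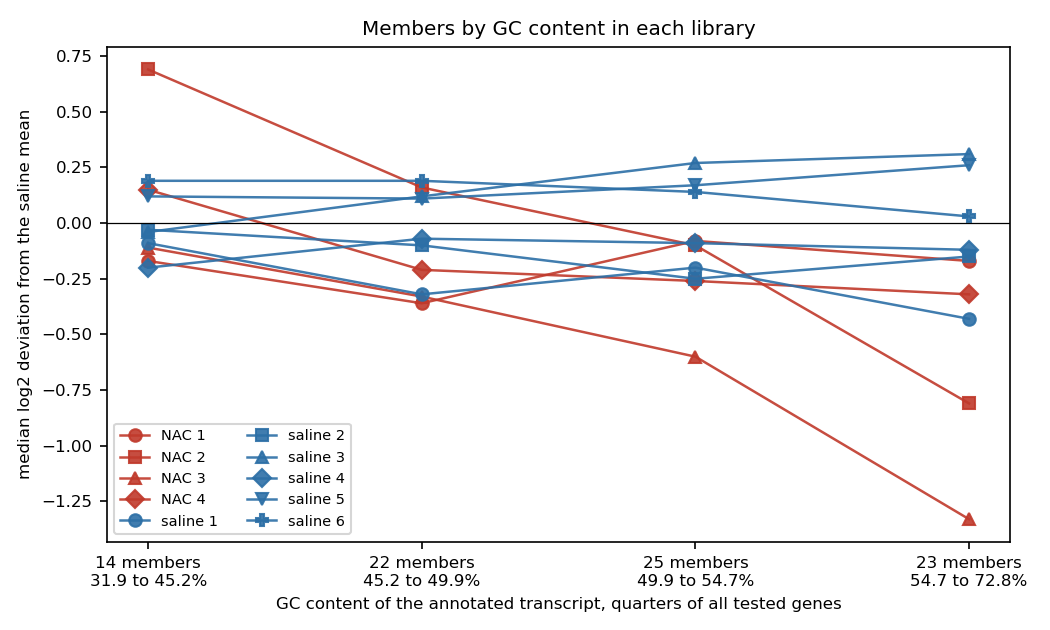
Median log2 deviation of members from the saline mean in each library, by quartile group of GC content of the annotated transcript (14, 22, 25 and 23 members). NAC 2 and NAC 3 fall with GC content, to -0.81 and -1.33 in the highest group; the other 8 libraries stay between -0.43 and 0.31 in every group.

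NAC libraries left the saline range in both directions. The number of members under the lowest saline library was 26, 28, 51 and 20 in NAC 1 to 4 (31%, 33.3%, 60.7% and 23.8%, against 20.3%, 40.3%, 36.8% and 20.6% of all genes tested), and the number over the highest was 8, 31, 6 and 5 (9.52%, 36.9%, 7.14% and 5.95%, against 22.8%, 29.9%, 22.8% and 19.5%). In 15 members, at least 3 NAC libraries were under the lowest saline library, and in 2, Uqcrb and Ndufa1, at least 3 were over the highest (17.9% and 2.38%, against 13.4% and 9.02% of all genes tested).

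Other genes of the pathway were followed from lists written for this purpose, and edgeR called none of the 89 genes tested in these lists. DESeq2 called 1 lower, Coq4, and 1 higher, Yy1 (1.12% each, against 2.44% and 1.77% of all genes). The 8 complex I assembly factors tested outside the name rule had a median log2 fold of -0.53, with 7 below 0; Foxred1 was at -1.56 (edgeR adjusted p = 0.206) and Dmac1 at -0.63. The 24 complex IV assembly genes were centred at 0.08, with Coa6 at 1.12 (edgeR adjusted p = 0.181) and Cox20, which guides subunit 2, at 2.00 (edgeR adjusted p = 0.201). The 5 complex III assembly genes were centred at 0.09, with Ttc19 at 0.77 and Uqcc1 at -0.33, and the 6 complex II genes at -0.05, with Sdhaf3 at 1.65. The 6 complex V genes outside the rule were centred at 0.20, with Atpaf2 at -1.51 (edgeR adjusted p = 0.293) and Usmg5 at 0.40. At an unadjusted p under 0.05 these 5 lists, 49 genes tested, held 5 lower (10.2%, all genes 8.34%) and 4 higher genes (8.16%, all 7.82%). In these 5 lists Coa3 lay wholly below saline (3.43% of all genes) and Cox16 and Cox20 wholly above (1.96%). These separations rest on few reads: in NAC 3 Coa3 had 15, Cox16 8 and Cox20 1. Cox20 had 11, 18 and 12 reads in NAC 1, 2 and 4 and 5 to 10 in a saline library. Without NAC 2, Cox20 was at 0.98, Ttc19 at 0.35 and Sdhaf3 at 1.05.

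Among 17 electron carriers and ubiquinone genes the median log2 fold was -0.08. At an unadjusted p under 0.05, 1 was lower and 1 higher (all genes 8.34% and 7.82%). Coq4, needed for ubiquinone synthesis, had 20.2, 0, 16.11 and 31.15 CPM in NAC and 45.09 to 77.54 in saline. The NAC values rest on 28, 0, 2 and 58 reads. The groups did not overlap (3.43% of all genes were lower in this way), and the log2 fold was -1.71 (SE 0.55, edgeR adjusted p = 0.152, DESeq2 adjusted p = 0.0289). Cycs, somatic cytochrome c, the partner of Cyc1, had a log2 fold of 0.94 (edgeR adjusted p = 0.242) and of -0.13 without NAC 2 and NAC 3. The 13 genes of mitochondrial DNA had a median of 0.41, with 10 above 0. At an unadjusted p under 0.05, 2 of the 13 were higher, where 7.82% of all genes tested were. They were mt-Nd2 at 1.12 (edgeR adjusted p = 0.166) and mt-Nd6 at 0.88 (edgeR adjusted p = 0.171). Without NAC 2 these 2 genes were at 0.58 and 0.71, and with the GC and length offsets at 0.23 and -0.06. The 13 summed to 45380 and 41510 CPM in NAC 2 and NAC 3, above all saline libraries (17030 to 34390), and to 16210 and 18520 in NAC 1 and NAC 4, below all 6 and 5 of the 6.

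The 10 regulators of respiratory genes tested had a median log2 fold of 0.56, with 4 at an unadjusted p under 0.05, all higher (background 7.82%). Gabpa, the DNA-binding subunit of GABP, had 33.18, 61.43, 56.38 and 47.8 CPM in NAC and 14.87 to 35.32 in saline, a log2 fold of 1.04 with an SE of 0.38 (edgeR adjusted p = 0.208), which was 0.45 with the GC and length offsets. Yy1, a zinc finger factor, had 93.78, 77.81, 32.22 and 80.03 CPM in NAC and 33.23 to 45.35 in saline, a log2 fold of 0.89 with an SE of 0.32 (edgeR adjusted p = 0.191, DESeq2 adjusted p = 0.0398). For both genes NAC lay mostly above saline, with 1 NAC library inside or under its range. Nrf1 had a log2 fold of -0.01 (edgeR adjusted p = 0.992).

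The motifs printed in the promoters above were set beside the folds. Of the 7 members with the NRF1 motif in the window, 6 were below 0 and the median log2 fold was -0.66, against -0.16 for the 62 without it. The 7 are Uqcrc1, Atp5g2, Cox6a1, Ndufaf5, Ndufa11 (-0.24), Atp5k (-0.03) and Ndufaf4 (0.44). Their transcripts had, in that order, a GC content of 57.5%, 63.3%, 58.8%, 47.2%, 58%, 53.9% and 39.5%. With the GC and length offsets Uqcrc1 was at -0.80, Atp5g2 at -0.50 and Cox6a1 at -0.38. The part of base composition in this difference was not tested. The ETS motif CCGGAAG lay in 16 of 69 windows (23.2%, all genes 20.2%), with medians of -0.19 with and -0.18 without it. A form of the YY1 motif, AAGATGG followed by CGG, lay in 5 (7.25%, all genes 2.47%), GGGCGG, the core of SP1 sites, in 31 (44.9%, all 67.6%), TATAAA in 5 (7.25%, all 6.23%) and ACGTG, the core of the hypoxia response element, in 14 (20.3%, all 26.5%). The 14 with ACGTG had a median log2 fold of -0.41 (12 below 0), against -0.13 for the 55 without it. Of these 14, Atp5d, Atp5g2, Ndufa7, Ndufaf3, Ndufb10, Ndufv1, Ndufv3 and Uqcr11 lay in the highest GC group, above 54.67%. Atp5g1, Atp5g3, Atp5l, Cox5a, Ndufa1 and Ndufa3 lay below it. The members of that group had a median of -0.44, and the part of base composition was not tested here either. The medians with and without were -0.26 and -0.18 for the YY1 form, -0.14 and -0.24 for GGGCGG and -0.01 and -0.18 for TATAAA. Matches were sought on both strands, and a match is a run of letters, not a measured binding site. The 15 members without a RefSeq window include Cyc1, Cox4i1 and Uqcrb.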

How the data were processed

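Each library came as a table of genes that the authors deposited. The submitters' processing notes name Salmon and the build GRCm38; its version, the annotation, strand setting and read filters were not stated there. Per the file headers, the deposited tables hold estimated counts, TPM, and a length and effective length. The deposited lengths of 67 of 84 members were shorter by more than 1.5 times than the length implied by reads and TPM, so only the implied length was used. Reads shared with near-identical copies, or with overlapping or antisense genes, cannot be told apart.

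Rows without a symbol (1548, 0.4956% to 0.6383% of a library's reads) were left out. Estimated counts were rounded and tested with edgeR 4.0.16 (quasi-likelihood, robust, TMM, default filter) in R 4.3.3 on all 10945 genes that passed, with Benjamini-Hochberg adjustment and a threshold of 0.05; log2 folds are NAC over saline. Alternatives used DESeq2 1.42.0 and limma 3.58.1 on log2(TPM + 1) and log2(TPM + 0.1), other scalings and filters, covariates, offsets and left-out libraries. Gene positions (GRCm38), GC content and lengths came from GENCODE, and promoters from RefSeq. Isoform shares were compared by exact permutation over 210 splits.

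Named were, per complex, the 3 lower and 2 higher members with the smallest p and the 2 with the highest saline TPM, both complex II members, isoform genes, those next to the read threshold, and 2 genes per other list. Other genes named were chosen after their values were seen. The values of 1 member, which counts and medians include, are not reported here. Members and lists were chosen with earlier results of these data known. Precision is limited by depth: a member's median read number was 11 in NAC 3 and 516 in saline 3, and reads were amplified without molecular identifiers, so they do not count molecules.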

Additional observations from a re-analysis of the deposited data

Results flagged for a closer look

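Of 122 groups of library values examined, 8 had 1 NAC library far from the other 3, where chance flags about 1 in 20. NAC 2 was highest for Uqcrb (292.8 CPM, next 104.6), Ndufs4 (587.7 CPM, next 260.5) and Cox20 (36.86 CPM, next 8.055), and lowest for Sdhc (63.48 CPM, next 145). NAC 3 was lowest for Cox8a (64.44 CPM, next 224). NAC 4 was highest for Cox4i2 (8.056 CPM, next 0.721), for the Cox4i2 share of subunit 4 reads (0.914%, next 0.0794%) and for the Atp5g2 share of subunit c reads (22.4%, next 10.42%). NAC 2 and NAC 3 are the libraries with the fewest reads.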

How the results depend on the processing

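Members called numbered 0 under each alternative except DESeq2 (3) and no low-count filter (2); all genes called ranged from 1 to 433. Members lower at an unadjusted p under 0.05 numbered 11, and 7 with library size alone, 6 when thinned to the shallowest library (68 members tested), and 9 to 21 with each library left out (21 without NAC 1). Members higher numbered 1, and 2 on log2(TPM + 1) and 2 on log2(TPM + 0.1), and 0 to 1 with a library left out (0 without NAC 2). The members' median ran from -0.32 to -0.04. Of 1081 gene values under alternatives, 1023 kept sign and side, 51 changed sign and 7 passed the threshold; 32 of 50 genes kept their sign throughout. The causes were not tested.

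Sign changed with library size alone for Atp5g3 (0.01), Cox6b1 (0.13) and Ndufa4 (0.09); on log2(TPM + 1) and log2(TPM + 0.1) for Atp5j2 (-0.02 in both), Atp5l (-0.03), Cox6b1 (0.05), Cox6b2 (-0.09, -0.87) and Uqcc1 (0.02, 0.01); with the oocyte score as covariate for Cox6b1 (0.13) and Ndufa4 (0.13); when thinned for Atp5g3 (0.19) and Uqcr10 (-0.22). Without NAC 2 and NAC 3 it changed for Atp5l (-0.14), Cox6c (-0.12), Cox7a2 (-0.29), Cycs (-0.13), Ndufa7 (0.00), Ndufaf8 (0.03), Ndufs4 (-0.02), Uqcr10 (-0.29), Uqcrh (-0.19) and the share differences of Cox4i2 (0.185) and Atp5g1 (5.87). With GC and length offsets it changed for Atp5l (-0.24), Cox6c (-0.13), Ndufb9 (0.18), Ndufs4 (-0.03), Uqcrh (-0.17) and mt-Nd6 (-0.06).

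With each library left out in turn, the log2 fold crossed 0 for Atp5j2 (-0.14 to 0.21), Atp5l (-0.34 to 0.38), Cox6b1 (-0.23 to 0.01), Cox6c (-0.17 to 0.34), Cox7a2 (-0.20 to 0.12), Ndufa4 (-0.55 to 0.07), Ndufs4 (-0.06 to 0.55), Uqcr10 (-0.39 to 0.14), Uqcrh (-0.35 to 0.25) and Usmg5 (-0.01 to 0.49), and so did the share differences of Cox4i2 (-0.285 to 0.0196), Cox6a2 (-0.14 to 0.473) and Atp5g1 (-11.5 to 2.48 percentage points).

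With the replicate number as a block, 0 members and 1 gene of 10287 were called, the members' median was -0.21 and Cox6b1 was at 0.05; same-numbered libraries correlated at -0.008, 0.01, 0.009 and 0.196, so the numbers are not taken to pair them.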
